A study of Mus musculus with 26 samples.

Results

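The insulin response of cells with an insulin receptor that lacks its C-terminus was set against that of cells with the intact receptor, gene by gene. For each gene the log2 change with insulin in IR cells was subtracted from that in ∆CT cells, so that a positive difference means a larger rise, or a smaller fall, on the log2 scale with the truncated receptor. The contrast used 11 of the 26 libraries: 3 of IR cells without insulin, 3 with insulin, 3 of ∆CT cells without insulin, and 2 with insulin. It was tested in 15402 of the 52962 genes in the table, those with more than 0.5 CPM (counts scaled to a common library size) in at least 4 of the 26 libraries.

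All libraries came from mouse brown preadipocytes, the precursor cells of brown fat, taken from newborn mice whose *Insr* and *Igf1r* alleles carried loxP sites and immortalised with SV40 T-antigen. Both genes had been inactivated with Cre recombinase in the IR and the ∆CT cells alike (DKO background). IR cells carried human IR of the B isoform, and ∆CT cells human IR without the 79 amino acids at its C-terminus, each brought in by a pBabe retrovirus and selected with hygromycin. Cells were starved of serum for 6 h and then left alone (basal) or given 100 nM insulin for 15 min. Each receptor was present in a single transduced line, so replicates measure dishes, and a difference between the lines cannot be told apart from a difference between independently made lines. The labels do not say how the dishes were grown, and p-values measure the spread between libraries only.

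Insulin binding switches on the tyrosine kinase of its receptor, which phosphorylates IRS and Shc proteins and starts the PI3K-AKT and the RAS-ERK branches. ERK phosphorylates ternary complex factors that sit with serum response factor (SRF) on the promoters of immediate early genes, and their transcription starts within minutes with no need for new protein. Many immediate early genes encode transcription factors (EGR and AP-1 families), while others encode proteins that end the signal, such as ERK phosphatases and mRNA decay factors. The C-terminal tail of IR holds tyrosines that the receptor phosphorylates itself, outside the kinase domain.

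Insulin raised nearly the same early genes in both lines, and 1 gene passed the test for a different effect. *Egr1*, a zinc-finger transcription factor of the early growth response family, rose 7.03-fold in IR and 12-fold in ∆CT cells, a log2 difference of 0.77 (SE 0.0922, 95% interval 0.58 to 0.96, adjusted p = 0.00063, edgeR quasi-likelihood test with Benjamini-Hochberg adjustment over all 15402 genes). That 1 call is 0.00649% of the genes tested. An unadjusted p below 0.05 was reached by 565 genes (3.67%), 260 with a difference above 0 and 305 with one below 0. DESeq2 and limma-voom also called 1 gene, with 267 and 616 genes below the unadjusted 0.05. Against a minimum difference of 1.5-fold no gene was called (0 in edgeR's glmTreat), and with no filter on low counts 141 of 31455 genes were called, 7 of them among the responsive genes. Over all genes the difference had a median of -0.00597 and a median size of 0.0741 on the log2 scale, with a median SE of 0.107.

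The 11 libraries held 19084248 to 23779162 counts, and all 26 held 17228982 to 24694828, so that 0.5 CPM is about 10 counts. Counts of a gene varied between dishes by a typical 4.44% beyond counting error. Of the preadipocyte markers, *Pdgfra*, *Pdgfrb*, *Ly6a*, *Cd34*, and *Thy1* were above the filter and *Dlk1*, *Ebf2*, and *Prdm16*, the last 2 being defining genes of the brown lineage, were not. The 8 markers summed to 846 to 901 CPM in every library of the 4 groups. Adipocyte markers summed to 0.551 to 1.29 CPM, with 3 of 7 at 0 in all 11 libraries. Macrophage markers summed to 2.67 to 3.13 CPM without and 3.97 to 4.68 CPM with insulin, myoblast markers to 1.75 to 4.29 CPM with 3 of 5 at 0, and endothelial markers to 9.31 to 16.3 CPM. Their part in the results was not tested. Mouse *Insr* sequence was counted at 65.9 to 69.3 CPM in IR and 74.6 to 81.8 CPM in ∆CT basal libraries, and at 85.2 to 89.8 and 96.4 to 99.7 CPM with insulin. In DKO cells, which carry no introduced receptor, it was 23.8 ± 1.32 CPM (mean ± SD, n = 3). The introduced receptors are human and share sequence with the mouse gene, so the sources of this level cannot be told apart. The interval of the *Insr* difference of insulin effects, -0.18 to 0.09, included 0. *Igf1r* was counted at 35.1 ± 0.672 CPM in IR, 30.3 ± 0.675 in ∆CT, and 27.1 ± 2.06 in DKO basal cells (mean ± SD, n = 3 each). The source of these *Igf1r* reads was not tested. Its basal level was lower in ∆CT than in IR cells (log2 gap -0.21, adjusted p = 0.00219, edgeR), and the interval of its difference of insulin effects, -0.06 to 0.26, included 0.

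The genes ranked first and second by p both encode EGR factors. EGR1, EGR2, and EGR3 bind the same GC-rich DNA element, and NAB1 and NAB2 are corepressors that bind them. *Egr1* (ENSMUSG00000038418, GRCm38 chromosome 18:34859823-34864984, protein coding) stood at 118, 109.9, and 99.1 CPM in the IR basal libraries and at 57.3, 56.6, and 67.8 CPM in the ∆CT basal libraries. With insulin it stood at 768, 762, and 774 CPM in IR and at 739 and 713 CPM in ∆CT cells. All ∆CT basal libraries lay below all IR basal libraries, by a log2 gap of -0.85 (SE 0.0664, adjusted p = 3.35e-09). With insulin the ∆CT libraries were again below, but the gap was -0.08 (SE 0.0647, adjusted p = 0.448). The difference of insulin effects is by construction the gap with insulin minus the gap without it, so for *Egr1* it lay almost wholly in the basal libraries. The rise itself was 659 CPM in IR and 665 CPM in ∆CT cells, which differ by 6.68 CPM with a standard error of 14.8 from the spread of dishes.

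*Egr3* (ENSMUSG00000033730, chromosome 14:70077203-70082614, protein coding) had the same pattern. Its basal values were 9.78, 10.5, and 10.4 CPM in IR and 5.83, 6.79, and 5.95 CPM in ∆CT cells. With insulin they were 59.4, 60.6, and 59.2 CPM in IR and 56.8 and 55.6 CPM in ∆CT cells. Basal ∆CT libraries lay below all IR ones (log2 gap -0.72, adjusted p = 7.63e-07), and with insulin the gap was -0.09 (SE 0.0682, adjusted p = 0.42). The insulin effect was 2.55 in IR and 3.18 in ∆CT cells on the log2 scale. Their difference of 0.63 (95% interval 0.39 to 0.88) was second in the ranking of all genes by p and had an adjusted p of 0.0599, above the threshold of 0.05. It had an adjusted p of 0.024 when only the 11 libraries were fitted, 0.0476 with a filter of at least 10 counts in 4 libraries, and 0.0422 without ∆CT basal replicate 2, and up to 0.661 without other libraries. Of the 8 alternatives of scaling, filter, rounding, library set, block, and tool, 3 called *Egr3*, and its adjusted p in the test of each was at most 0.21. In CPM the rises of *Egr3* were 49.5 and 50.03, a difference of 0.487 with a standard error of 0.832.

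*Egr2* (ENSMUSG00000037868, chromosome 10:67535475-67542188, protein coding) went from between 3.46 and 4.13 CPM to between 30.5 and 31.6 CPM in IR cells and from between 2.4 and 3.31 CPM to between 28 and 28.9 CPM in ∆CT cells. The ∆CT libraries were below the IR libraries in both states. The log2 difference of insulin effects was 0.30 with an interval of -0.03 to 0.64. A second gene ID, ENSMUSG00000116458, had the counts of *Egr2* in all 26 libraries and is counted here as the same gene. *Nab1* and *Nab2* had insulin effects of 0.04 and -0.00443 in IR and -0.05 and 0.06 in ∆CT cells on the log2 scale, and *Egr4* was below the filter. Of the 5 members tested, 1 was called, against 0.00649% of all genes, and the median difference was 0.30.

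**Figure D1:**
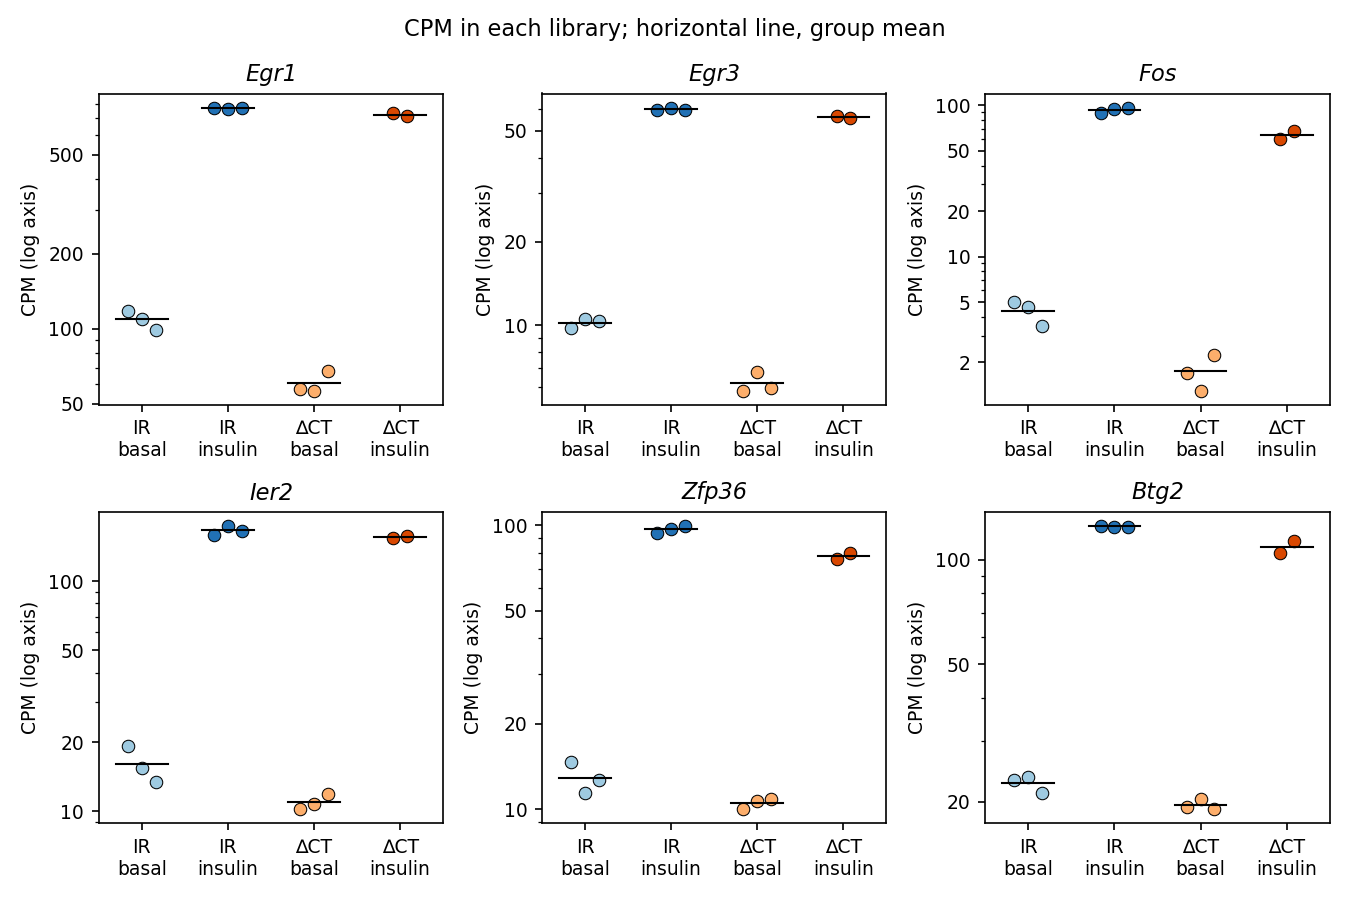
CPM of 6 genes (vertical log axis, one panel per gene) in each library of the 4 groups, with a horizontal line at each group mean. *Egr1*, *Egr3*, *Fos*, and *Ier2* points lie further apart between IR and ∆CT without insulin than with it, whereas *Zfp36* and *Btg2* points of ∆CT cells lie below those of IR cells by a like distance in both states.

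AP-1 is a dimer of FOS and JUN family proteins, and *Fos*, *Fosb*, *Fosl1*, *Jun*, *Junb*, and *Atf3* rose in both lines. *Fos* (ENSMUSG00000021250, chromosome 12:85473890-85477273, protein coding), the partner that is nearly absent from resting cells, was at 5, 4.67, and 3.46 CPM in IR and at 1.71, 1.3, and 2.23 CPM in ∆CT basal libraries. With insulin it reached 89, 95.3, and 96.6 CPM in IR and 60.1 and 68 CPM in ∆CT cells. The ∆CT libraries were below the IR libraries in both states, by log2 gaps of -1.33 without insulin (adjusted p = 2.53e-07) and -0.55 with it (adjusted p = 1.73e-06). The insulin effect was 4.41 in IR and 5.20 in ∆CT cells, and the difference of 0.79 (SE 0.187, 95% interval 0.41 to 1.17) did not pass the test (adjusted p = 0.979). The ∆CT basal libraries held 26 to 43 *Fos* counts each, against 1133 to 1311 for *Egr1*. In CPM the direction was the opposite: *Fos* rose by 89.3 in IR and by 62.3 in ∆CT cells, a difference of -27 with a standard error of 4.64.

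The JUN proteins pair with FOS or with each other. *Jun* went from 38.2 to 48.1 CPM without insulin to 94.7 to 105.2 CPM with it in IR cells, and from 38.7 to 44.9 CPM to 105.2 and 108.7 CPM in ∆CT cells. Basal libraries of the lines overlapped, and the log2 difference of effects was 0.21 (0.01 to 0.41). *Junb*, with the same difference of 0.21, had an interval of -0.12 to 0.54, and its libraries overlapped in both states. *Fosb*, *Fosl1*, and *Atf3* had differences of 0.05, -0.01, and 0.04, each with an interval that included 0 (the widest -0.43 to 0.51, for *Atf3*). *Fosl1* was higher in ∆CT cells in both states, by 0.85 without and 0.85 with insulin (adjusted p = 0.000172 and 7.08e-05). Of the 8 AP-1 genes tested, 0 were called in edgeR and 2, *Fos* and *Jun*, had an unadjusted p below 0.05. The shares of all genes were 0.00649% and 3.67%, and the list median was 0.13. With 1 call among all genes, 0 calls in a list say little about that list.

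Some genes that remove mRNA or reduce ERK activity are raised by the signal that they end. In the test of the mean insulin effect of both lines against 1.5-fold, 2 of the 8 mRNA decay and 4 of the 13 feedback genes tested passed. A difference near 0 in the other members is thus no sign of a response kept in both lines. None of either list was called for the difference. *Zfp36* (ENSMUSG00000044786, chromosome 7:28376784-28380253), which encodes tristetraprolin, a protein that binds AU-rich elements and brings deadenylases to mRNA, stood at 14.6, 11.3, and 12.6 CPM in IR and 10.01, 10.7, and 10.8 CPM in ∆CT basal libraries. With insulin it stood at 94.2, 97.02, and 99.3 CPM in IR and 75.9 and 79.8 CPM in ∆CT cells. The ∆CT libraries lay below the IR libraries by a similar log2 gap in both states (-0.31 and -0.31, adjusted p = 0.00358 and 7.41e-05), and the difference of insulin effects was -0.01 (-0.21 to 0.19). *Btg2* (ENSMUSG00000020423, chromosome 1:134075170-134079120), an antiproliferative protein that recruits the same deadenylase complex, had the narrowest interval of the strongly raised genes, 0.01 (-0.13 to 0.15), with effects of 2.47 and 2.48. Its libraries stood at 21.1 to 23.5 CPM and then at 124.8 to 125.2 CPM in IR, and at 19.04 to 20.3 CPM and then at 104.7 and 113.3 CPM in ∆CT cells. Of the 8 mRNA decay genes tested, 0 were called and 0 had an unadjusted p below 0.05 in either direction (0.00649% and 3.67% of all genes). Their differences ran from -0.06 to 0.08.

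The dual-specificity phosphatases inactivate MAP kinases. *Dusp5* (ENSMUSG00000034765, chromosome 19:53529109-53542431), a nuclear phosphatase selective for ERK, went from 4.4 to 5.17 CPM to 17.3 to 19.9 CPM in IR and from 4.71 to 5.54 CPM to 16.8 and 17.8 CPM in ∆CT cells. Its difference was -0.22 (-0.51 to 0.06). *Dusp1* and *Dusp6* had differences of -0.10 (-0.33 to 0.13) and -0.15 (-0.44 to 0.15), so all 3 raised phosphatases had a value below 0 and an interval that included it. *Errfi1*, an inhibitor of the EGF receptor kinase, went the other way. It stood at 33.3, 30.6, and 27.6 CPM in IR and at 27.5, 27.4, and 24.7 CPM in ∆CT basal libraries, and at 77.1, 69.7, and 76.2 CPM and 80.5 and 81.5 CPM with insulin. Its ∆CT libraries were below the IR libraries without insulin and above them with it, and the difference was 0.33 (0.13 to 0.52, adjusted p = 1). The Sprouty and SPRED genes, which act upstream on RAS and RAF, had differences between -0.27 and 0.18. Of the 13 feedback genes tested 0 were called and 1, *Errfi1*, had an unadjusted p below 0.05 (0.00649% and 3.67% of all genes).

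Promoters of 24 of the 37 insulin-responsive genes, chosen on the mean insulin effect of both lines, were in the RefSeq table for GRCm38.p6, as 300-base windows from 250 bases before to 50 bases after the start, and were searched on both strands for 3 motifs. A CArG box, the core that SRF binds, was in 4 of them (16.7%: *Egr2*, *Zfp36*, *Dusp5*, and *Dnm3os*), against 1.81% of 27025 genes with a window. The full cAMP response element TGACGTCA was in 4 (16.7%: *Btg2*, *Dusp1*, *Errfi1*, and *Ppp1r15a*), against 2.03%, and TGACG, its first 5 letters, which every full element holds on each strand, in 17 (70.8%) against 23%. Genes with a CArG box had differences of insulin effects from -0.22 to 0.30 (median -0.02), against a median of 0.05 for those without one. Genes with the full element had differences from -0.10 to 0.33 (median -0.04), against a median of 0.05 for those without it. Genes with TGACG went the other way, with a median of 0.04 against 0.02. Genes without 1 motif could hold another. The windows of 4 genes are printed to set *Fos*, the responsive gene with the highest positive difference, beside 3 with differences near 0 or below it. Capitals mark the matches: TGACG in *Fos* (chr12:85473640-85473939, plus strand), a CArG box in *Zfp36* (chr7:28379179-28379478, minus strand), 2 adjoining CArG boxes and a TGACG read on the other strand in *Dusp5* (chr19:53528895-53529194, plus strand), and the full element in *Btg2* (chr1:134079106-134079405, minus strand). No CArG box lies in this window of *Fos*. A match describes letters and not binding. *Egr1* and *Egr3* are not among the genes with a match to any of the 3 motifs. Genes without a window could not be searched, and whether *Egr1* and *Egr3* had one is not given here. Their promoters can therefore not be said to lack these motifs. The 27025 genes were not limited to those tested here.
Fos: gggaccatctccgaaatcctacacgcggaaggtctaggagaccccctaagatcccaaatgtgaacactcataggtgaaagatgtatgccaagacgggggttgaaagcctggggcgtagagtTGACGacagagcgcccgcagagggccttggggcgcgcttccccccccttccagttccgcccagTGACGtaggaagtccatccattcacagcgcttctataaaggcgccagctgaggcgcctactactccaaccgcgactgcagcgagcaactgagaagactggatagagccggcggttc
Zfp36: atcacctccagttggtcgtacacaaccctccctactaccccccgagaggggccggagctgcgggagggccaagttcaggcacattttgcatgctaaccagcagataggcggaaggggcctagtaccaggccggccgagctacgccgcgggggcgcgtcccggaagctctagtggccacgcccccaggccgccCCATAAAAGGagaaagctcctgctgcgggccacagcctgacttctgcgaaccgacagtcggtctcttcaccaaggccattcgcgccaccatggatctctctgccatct
Dusp5: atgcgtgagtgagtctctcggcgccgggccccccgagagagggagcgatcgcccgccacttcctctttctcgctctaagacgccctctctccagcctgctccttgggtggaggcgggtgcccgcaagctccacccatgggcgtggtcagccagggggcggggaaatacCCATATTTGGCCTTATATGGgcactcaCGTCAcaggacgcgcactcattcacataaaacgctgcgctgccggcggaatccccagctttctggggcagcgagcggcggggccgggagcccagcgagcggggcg
Btg2: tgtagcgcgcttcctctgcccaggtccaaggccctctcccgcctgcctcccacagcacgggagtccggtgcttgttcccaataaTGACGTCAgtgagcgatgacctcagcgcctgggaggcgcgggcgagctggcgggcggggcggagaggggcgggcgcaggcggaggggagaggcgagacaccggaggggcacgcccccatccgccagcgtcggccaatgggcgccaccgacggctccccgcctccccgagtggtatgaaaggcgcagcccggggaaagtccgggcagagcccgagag

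The first CArG box began 58 bases before the start in *Zfp36* and 82 bases before it in *Dusp5*, and the full element 166 bases before the start in *Btg2*. The TGACG matches of *Fos* began 129 and 66 bases before the start. Within these windows *Fos* and *Zfp36* differ in these letters and in their difference of insulin effects (0.79, which did not pass the test, and -0.01). *Dusp5* and *Btg2* also hold TGACG, with differences of -0.22 and 0.01, so the letters did not go with the difference in these windows. Sequence more than 250 bases before the start was not searched, so a CArG box of *Fos* further upstream would not be seen. With so few genes no relation was tested.

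The IER and other stress-linked early genes were split. *Ier2* (ENSMUSG00000053560, chromosome 8:84661331-84662852), a nuclear protein, stood at 19.3, 15.4, and 13.4 CPM in IR and at 10.2, 10.7, and 11.9 CPM in ∆CT basal libraries, and at 159, 173, and 165 CPM and 154 and 158 CPM with insulin. It was lower in ∆CT cells without insulin (log2 gap -0.56, adjusted p = 0.00389), and with insulin the gap was -0.09 (adjusted p = 0.556). The difference of effects was 0.47 (0.13 to 0.81, adjusted p = 1). *Ier3* had a difference of 0.22 (0.02 to 0.42). *Arc*, *Gadd45g*, and *Ppp1r15a* had differences of -0.02, 0.02, and -0.10, each with an interval that included 0. *Arc*, known from synapses, was raised from between 7.09 and 8.04 CPM to between 52 and 53.7 CPM in IR cells and from between 5.99 and 7.87 CPM to 47.2 and 46.7 CPM in ∆CT cells. Of the 15 genes of this list tested, 0 were called and 2 had an unadjusted p below 0.05 and a positive difference. Over all genes 0.00649% were called and 3.67% had an unadjusted p below 0.05 in either direction. The list median was -0.01.

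Of the 10 other early transcription factors tested, 0 had an unadjusted p below 0.05 for the difference (3.67% of all genes), and the median was 0.02. Differences ran from -0.93 (*Klf10*, SE 0.712) to 0.66 (*Nr4a3*, SE 0.622). *Nr4a1*, an orphan nuclear receptor, rose from between 5.59 and 7.3 CPM to between 36.5 and 37.3 CPM in IR cells and from between 3.9 and 4.79 CPM to 26.8 and 24.5 CPM in ∆CT cells. Its ∆CT libraries were below the IR libraries by -0.56 without and -0.53 with insulin (adjusted p = 0.0009 and 0.000105), and the difference was 0.03 (-0.29 to 0.35). *Klf2* had a difference of 0.20 (-0.00187 to 0.40), and *Hes1*, a repressor downstream of Notch, one of 0.03 (-0.23 to 0.28). *Klf6*, *Myc*, and *Srf* rose in both lines with no minimum fold, by 0.54, 0.53, and 0.37 in IR and 0.56, 0.48, and 0.44 in ∆CT cells. *Ccn1*, a secreted matricellular protein, went from 33 to 37.2 CPM to 209 to 226.2 CPM in IR and from 22.4 to 26.2 CPM to 177 and 185 CPM in ∆CT cells. Its difference was 0.28 (0.06 to 0.49), and its ∆CT libraries were below the IR libraries in both states. *Rhob*, a small GTPase, had a difference of 0.18 (0.02 to 0.33, adjusted p = 1).

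**Figure D2:**
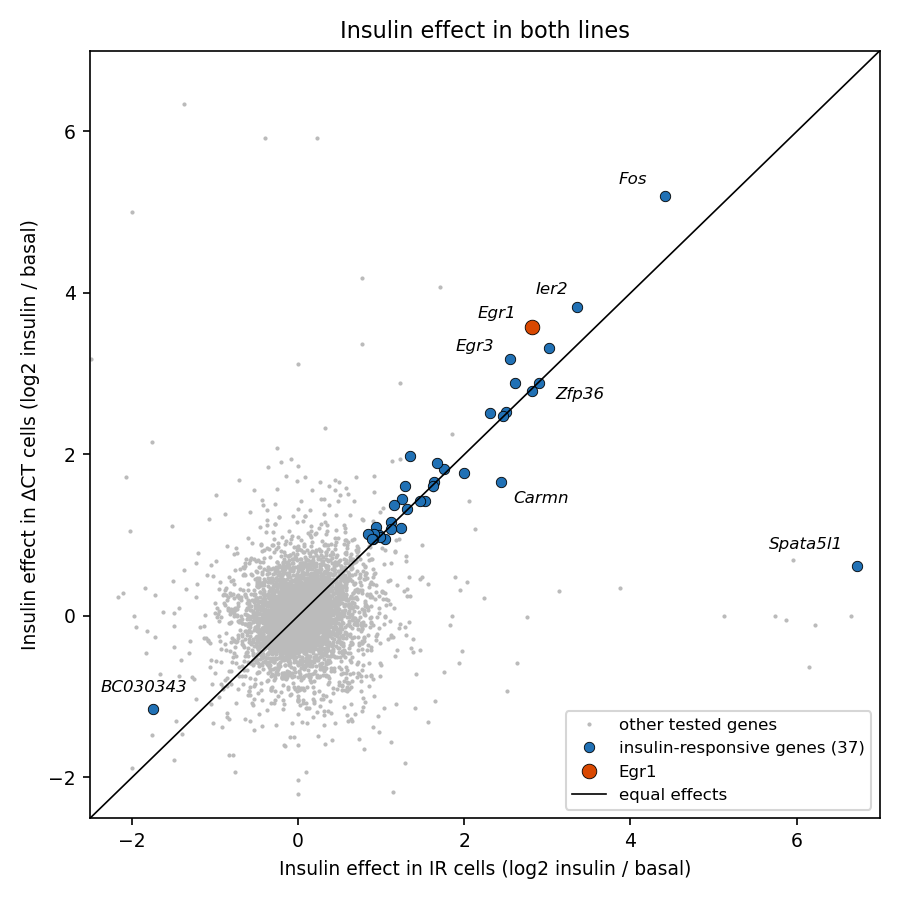
Insulin effect in ∆CT cells (vertical, log2) against that in IR cells (horizontal, log2) for the genes tested, with the line of equal effects; 50 of the other genes lie outside the axes. The responsive genes lie along the line, *Egr1* (2.81 and 3.58), *Egr3*, *Fos*, and *Ier2* above it, and *Carmn* and *Spata5l1* below it.

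To describe responsive genes without favouring a line, they were chosen by the mean of both insulin effects, weighted by library number, in a test against a minimum fold of 1.5. That gave 38 gene IDs (0.247% of those tested), or 37 genes without the second ID of *Egr2*, of which 36 rose and 1, the noncoding *BC030343*, fell. Their median insulin effect was 1.53 in IR and 1.61 in ∆CT cells. The difference of effects had a median of 0.05 (0.0525 with the second ID), was above 0 for 25 genes and below 0 for 12, and was smaller than 0.25 in size for 26. The 95% interval lay within 0.5 of 0 for 22 genes and within 1 of 0 for 32, and it did not include 0 for 11 genes, 9 above and 2 below, where 3.67% of all genes had an unadjusted p below 0.05 (260 above 0 and 305 below). The 9 were *Fos*, *Egr1*, *Egr3*, *Ier2*, *Errfi1*, *Ccn1*, *Ier3*, *Jun*, and *Rhob*, and the 2 were *Carmn* and *Spata5l1*. *Spata5l1* entered the set through IR cells (log2 effect 6.72, against 0.62 with adjusted p = 0.794 in ∆CT cells, edgeR), so its place below 0 follows from its selection. *Gm17971* had an adjusted p of 0.0726 in IR cells.

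The 2 genes with an interval below 0 are noncoding transcripts in the annotation. *Carmn* (ENSMUSG00000097324), a long noncoding RNA, went from 2.13, 2.23, and 3.51 CPM to 17.5, 13.5, and 11.5 CPM in IR cells and from 3.46, 2.55, and 3.47 CPM to 7.75 and 12.1 CPM in ∆CT cells. The lines overlapped in both states, and the difference was -0.78 (-1.52 to -0.04, adjusted p = 1). *Spata5l1* (ENSMUSG00000074876, annotated as a processed transcript) had 0 counts in the 3 IR basal libraries, 40 over the 3 IR insulin libraries, 29 over the 3 ∆CT basal, and 31 over the 2 ∆CT insulin libraries. The rise in IR cells was at least 13.3-fold against a floor of 3 counts over the group, and the ratio in ∆CT cells was 1.54 with a counting interval of 0.899 to 2.65. These intervals and floors cover counting error only, and estimated counts of so few reads can be set to 0 by the assignment of reads to transcripts.

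**Figure D3:**
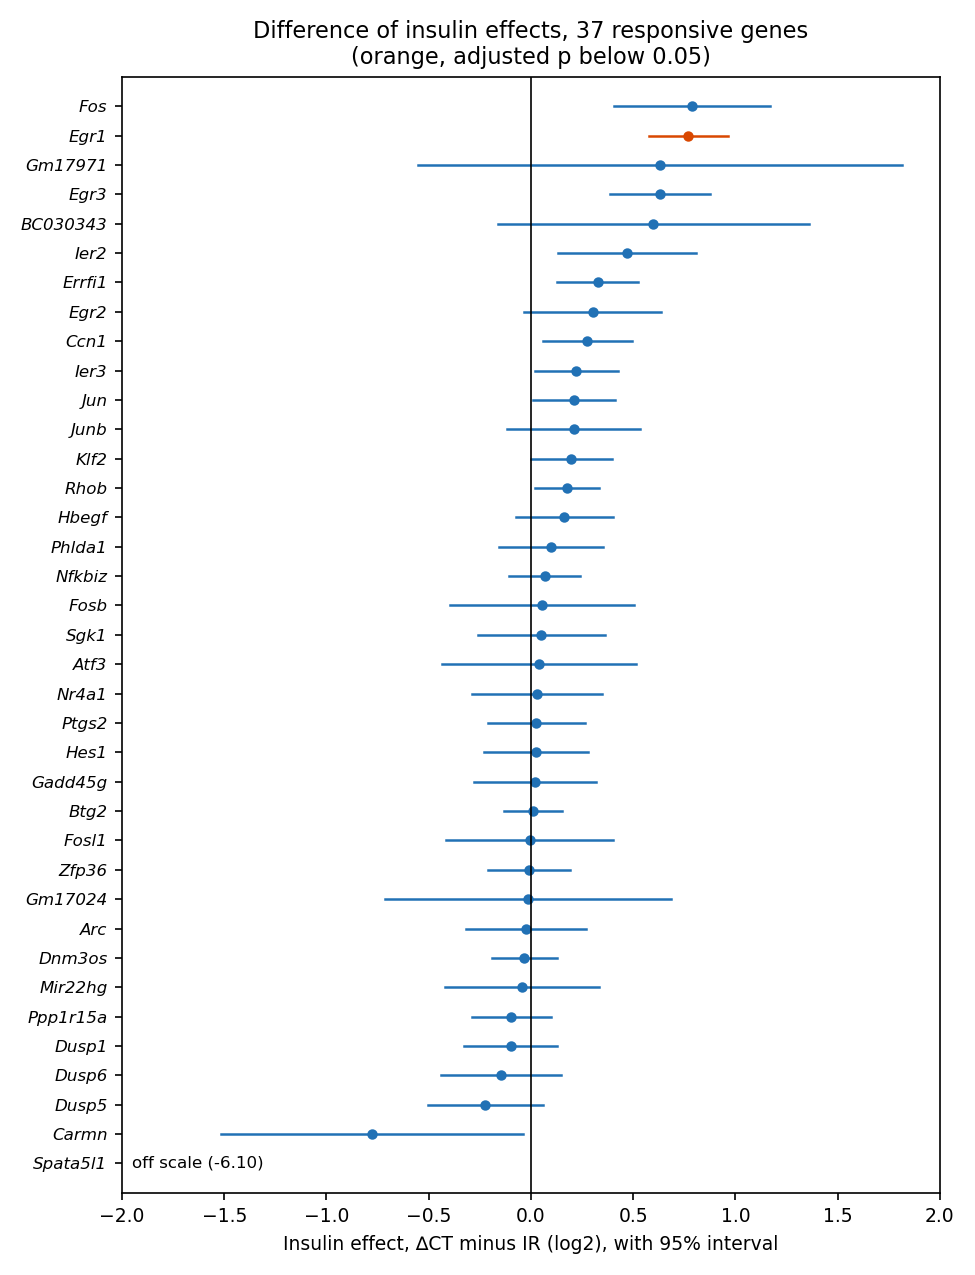
Difference of insulin effects (∆CT minus IR, log2, horizontal) with its 95% interval for the 37 responsive genes, ordered by value, with *Egr1* in orange as the 1 gene with an adjusted p below 0.05. *Spata5l1* (-6.10) is beyond the axis, and 22 of the intervals lie within 0.5 of 0.

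Called line by line against the minimum fold of 1.5, insulin raised 33 gene IDs in IR (0.214% of those tested) and 33 in ∆CT cells (0.214%), and 32 were called in both. Both IDs of *Egr2* are among these, and without the second the numbers were 32, 32, and 31 genes. The wider counts that follow are also of gene IDs. Without a minimum fold 288 genes changed in IR (1.87%, 215 higher and 73 lower) and 155 in ∆CT cells (1.01%, 144 higher and 11 lower). Of these, 119 were called in both, 41.3% of the IR and 76.8% of the ∆CT genes, all in the same direction. The ∆CT insulin group had 2 libraries and the IR insulin group 3, and the part of this in the counts was not tested. The 155 ∆CT genes all had the same sign in IR cells, and 275 of the 288 IR genes had the same sign in ∆CT cells. Of the 324 genes called in either line, 1, *Egr1*, passed the test of the difference.

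A wider set was taken from the weighted mean effect with no minimum fold, 451 genes raised (2.93%) and 340 lowered (2.21%). The raised genes had a median effect of 0.22 in IR and 0.23 in ∆CT cells and a median difference of -0.000346. The lowered genes had medians of -0.14 and -0.11 and a median difference of 0.02. All 451 raised and 339 of the 340 lowered genes had the same sign in both lines. The choice by the mean of both effects favours equal signs, so this is not a measure of agreement between the lines. An unadjusted p below 0.05 for the difference was reached by 36 of the 791 (4.55%), against 3.67% of all genes. Across these 791 genes the effects of the lines had a Pearson r of 0.75, which is a description across genes that are not independent and were chosen for a shared effect.

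Without insulin the responsive genes were more often lower than higher in ∆CT cells. Of the 37, 15 were lower (adjusted p below 0.05, no minimum fold) and 4 higher, where 14.8% of all genes tested were lower and 11.2% higher. With insulin 8 were lower and 3 higher, against 11.6% and 8.07% of all genes. The median gap between the lines was -0.15 without and -0.07 with insulin on the log2 scale, against -0.01 and -0.02 over all genes. Apart from the genes given above, *Gadd45g* was lower in ∆CT cells in both states (-0.38 and -0.36, adjusted p = 0.00783 and 0.0109), and *Sgk1*, a kinase activated downstream of PI3K, was higher in both (0.39 and 0.44, adjusted p = 0.00968 and 0.00385). Fewer cells in an early-response state and less RNA per cell cannot be told apart in such bulk samples.

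**Figure D4:**
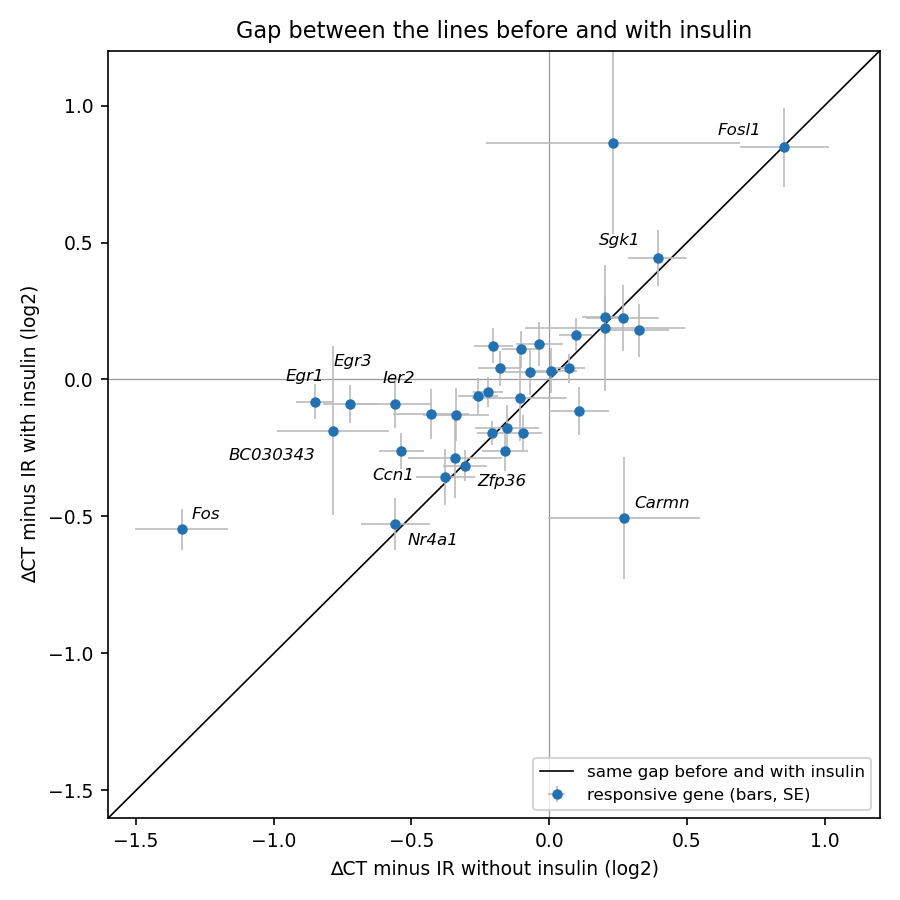
Gap between the lines (∆CT minus IR, log2) with insulin (vertical) against that without insulin (horizontal) for 36 responsive genes, with SE bars; *Spata5l1* is left out and *Gm17971* is the unlabelled point with long bars. Points on the line have equal insulin effects, and *Egr1* (-0.85 and -0.08), *Egr3*, *Ier2*, and *Fos* lie left of it, where the gap is larger without insulin.

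The basal level of *Egr1* varied among the lines. It was 107.1 ± 6.08 CPM in DKO cells (mean ± SD, n = 3), 109.1 ± 9.7 in IR, 109.6 ± 4.9 in JMO cells, whose receptor lacks most of its intracellular domain apart from the juxtamembrane part, 67.9 ± 1.25 in kinase-dead K1030R cells, and 60.6 ± 6.3 in ∆CT cells. Basal *Egr3* was 14.1 ± 1.07 CPM in DKO, 10.2 ± 0.399 in IR, 13.8 ± 1.52 in JMO, 7.46 ± 0.735 in K1030R, and 6.19 ± 0.523 in ∆CT cells. For both genes the K1030R and ∆CT libraries lay below those of the other lines. Basal *Fos* was 4.12 ± 0.477 CPM in DKO, 4.37 ± 0.81 in IR, 5.2 ± 0.55 in JMO, 2.18 ± 0.38 in K1030R, and 1.74 ± 0.465 in ∆CT cells.

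Of the 36 responsive genes that rose, 19 rose by more CPM in ∆CT cells and 17 by fewer, and 14 of these differences were more than 2 standard errors from 0. These standard errors rest on the spread of 2 or 3 libraries per group (SD 0.0378 CPM for *Rhob* in ∆CT cells with insulin). They mark no test threshold, and the share of all tested genes beyond 2 standard errors was not computed. The sign differed between the log2 and the CPM scale for 15 genes, 10 with a log2 difference above 0 and a smaller rise in CPM, and 5 the other way (*Fosl1*, *Dusp6*, *Dnm3os*, *Mir22hg*, and *Gm17024*). *Zfp36* rose by 84 CPM in IR and by 67.3 CPM in ∆CT cells, a difference of -16.6 with a standard error of 2.6, although its log2 effects were equal within 0.01. *Nr4a1* (-9.24 with a standard error of 1.3), *Arc* (-5.35, 0.869), and *Ccn1* (-25, 6.55) also rose by fewer CPM in ∆CT cells. *Ptgs2*, the inducible cyclooxygenase, rose by 81.3 CPM in IR and 96.4 CPM in ∆CT cells, a difference of 15.1 with a standard error of 6.52 and a log2 difference of 0.03 (-0.21 to 0.26). *Errfi1* and *Jun* rose by more on both scales, by 10.6 CPM (standard error 3.02) and 10.9 CPM (5.1). These differences in CPM were not tested across genes.

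**Figure D5:**
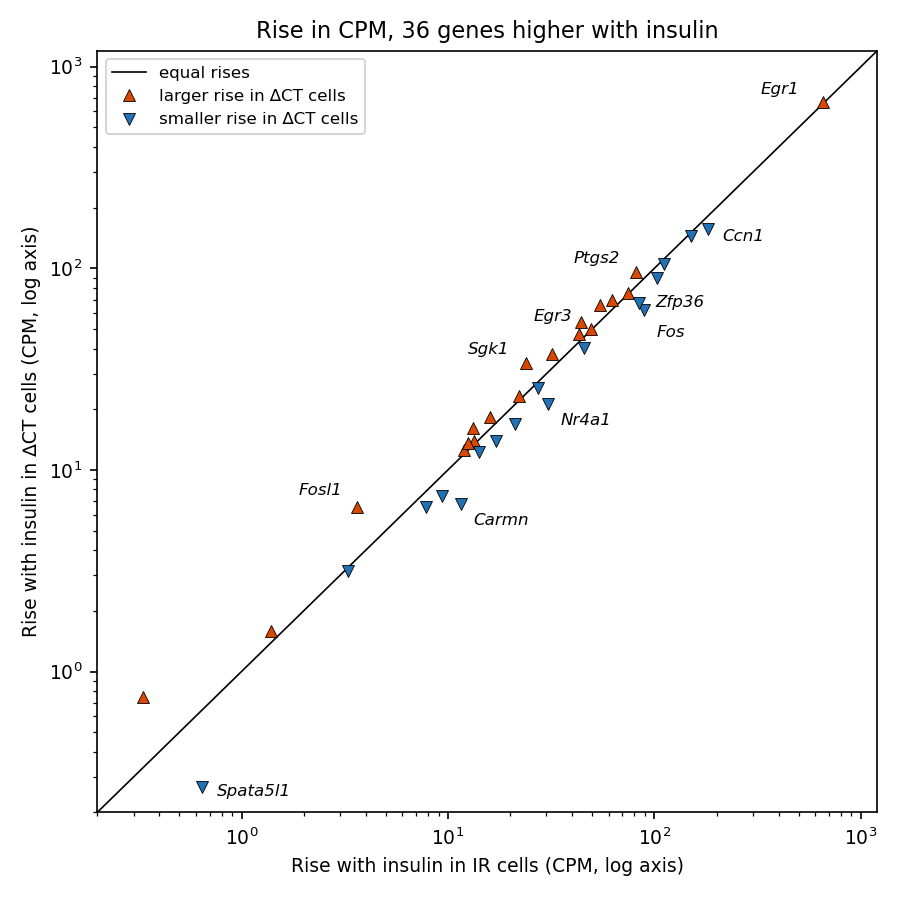
Rise with insulin in ∆CT cells (vertical, CPM, log axis) against that in IR cells (horizontal, CPM, log axis) for the 36 responsive genes that rose, with the line of equal rises. *Egr1* (665 and 659 CPM) and *Egr3* lie on the line, *Fos*, *Zfp36*, *Ccn1*, and *Nr4a1* below it, and *Ptgs2* and *Sgk1* above it.

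Across the 12 functional lists, 140 of 145 genes were tested, 1 was called (*Egr1*), and 8 (5.71%) had an unadjusted p below 0.05, all 8 with a difference above 0, against 3.67% of all genes. These 8 are all among the 9 responsive genes given above with an interval above 0, and the lists were chosen with earlier results known. The share is thus no separate result. Cytoskeletal SRF targets such as *Actb*, *Vcl*, and *Tagln* had differences from -0.10 to 0.02 over 11 genes. FOXO targets, which AKT signalling represses, had a median difference of -0.00265 over 12 genes, and *Txnip* and *Pdk4* rose in both lines (0.30 and 0.24, and 0.13 and 0.18). Lipid and glucose genes had differences from -0.09 to 0.09 over 13 genes, and 10 of the 13 were higher in ∆CT cells without insulin (background 11.2%). *Scd2*, a fatty acid desaturase, was higher by 0.28 without and 0.29 with insulin, and *Insig1*, which holds back SREBP processing, rose by 0.34 in IR and 0.25 in ∆CT cells. Of 31 genes of the insulin-ERK pathway itself, among them *Irs1*, *Shc1*, and *Elk1*, 0 were called for the difference in edgeR, 0 had an unadjusted p below 0.05, and differences ran from -0.14 to 0.10. Of 8 CCN and YAP targets and 7 genes of the Notch, HES, and ID list, 0 were called, with medians of 0.01 and 0.03.

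After *Egr1*, *Egr3*, and *Fos*, the genes of the ranking by p had an adjusted p of 1, among them *Spata5l1* and *Errfi1* of the responsive set. *Mcub*, a subunit that inhibits the mitochondrial calcium uniporter, stood at 20.9 to 21.7 CPM without and 21.7 to 22.5 CPM with insulin in IR, and at 21.9 to 23.4 CPM without and 19.1 and 19.2 CPM with insulin in ∆CT cells. Its difference was -0.32 (-0.51 to -0.14). *Cntn1*, *Zfp54*, *Zfp160*, and *Tmem87a* also had differences of insulin effects below 0, of -1.91, -0.64, -0.25, and -0.23. These 5 were taken from the ranking after their values were seen.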

How the data were processed

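Total RNA was sequenced as single-end, stranded, oligo-dT selected libraries (KAPA kit). Per the labels and the study's methods, the authors trimmed reads with fastp, quantified them with kallisto against Ensembl 98 transcripts (mouse), and summed them to genes with tximport, and the deposited values are expected counts per gene, not normalized, of which 79.9% were whole. They were rounded here to whole counts. Genes above 0.5 CPM in at least 4 libraries were kept, scaled by TMM, and fitted with edgeR's robust quasi-likelihood model over all 26 libraries and 9 groups (edgeR 4.0.16, limma 3.58.1, DESeq2 1.42.0, R 4.3.3), with Benjamini-Hochberg adjustment at 0.05. Responsive genes came from a glmTreat test at 1.5-fold on the mean of both insulin effects, weighted 0.556 for IR and 0.444 for ∆CT. Named genes were the responsive genes, the receptors, the members of fixed lists, and the 20 genes with the lowest p. The members and lists were chosen with earlier results of these data known. Scripts were tested on simulated data. The main fit used no pairing by replicate number. Correlations of deviations from the group mean were -0.0866 to 0.0751 over 15 same-numbered pairs and -0.146 to 0.148 over 30 others. Deviations within such small groups depend on each other, so these values cannot decide whether libraries were paired. Gene positions are from GENCODE M21 on GRCm38 and promoters from RefSeq on GRCm38.p6, and 15193 of 15402 gene IDs had a symbol. Alternatives were RLE scaling, other filters, unrounded counts, only the 11 libraries, a replicate block, DESeq2, limma-voom, other thresholds, each library left out, and, chosen after seeing the data, the second *Egr2* ID left out.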

Additional observations from a re-analysis of the deposited data

Results flagged for a closer look

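*Egr1* differed in its insulin effect between the lines by a test of the difference itself. The log2 difference, ∆CT minus IR, was 0.77 (SE 0.0922, adjusted p = 0.00063, edgeR), and it ran from 0.71 to 0.86 when each of the 11 libraries was left out in turn, with an adjusted p between 2.89e-06 and 0.0129.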

How the results depend on the processing

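The count of genes with a different insulin effect, 1 by the reported analysis, was 141 with no filter on low counts (128 of them among the 15402 genes, 13 below the filter), 2 with at least 10 counts in 4 libraries, 2 with only the 11 libraries, 2 at an adjusted p below 0.1, and 0 against a minimum fold of 1.5. *Egr1* was called in the 8 alternatives of scaling, filter, rounding, library set, block, and tool. Without the filter *Fos* (adjusted p = 0.000497, edgeR), *Ier2* (1.76e-05), *Errfi1* (0.00371), *Ccn1* (0.0119), *Egr3* (2.28e-05), and *Spata5l1* (0.000149) were called as well. With *Egr1* they are the 7 responsive genes among the 141. The lowest adjusted p belonged to genes outside the responsive set, among them *Gm43972* (1.67e-150), *Klf10* (7.71e-64), and *mt-Co2* (4.44e-49). None of these 3 was called by the reported analysis. Without the filter the gene IDs called at 1.5-fold with insulin were 103 in IR and 95 in ∆CT cells, against 34 and 33. The median SE of the 15402 genes was 0.107 with and 0.105 without the filter, and the cause was not tested. With 1 library left out, the count ran from 1 to 3 (*Egr1* and *Egr3* without ∆CT basal replicate 2, and *Egr1*, *Gm4767*, and *Gm10778* without ∆CT insulin replicate 2), the calls in IR from 28 to 36 and in ∆CT from 28 to 32, and the median difference of the responsive genes from 0.0299 to 0.129. Where an insulin group of ∆CT was left with 1 library, its spread was taken from the other groups. The replicate block gave 1 call, 36 and 31 insulin calls, and a median of 0.0427, and it changed no call of a named gene.

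Values near 0 changed sign. *Fosl1* was 0.00849 with no filter, 0.0023 with at least 10 counts, 0.00109 with 11 libraries, and 0.0133 in limma-voom. *Zfp36* was 0.00594 and *Gm17024* 0.000213 with no filter, and *Gm17024* 0.0892 in limma-voom. With the block *Btg2* was -0.000313, *Hes1* -0.00213, and *Arc* 0.0271. With 1 library left out the ranges were -0.106 to 0.0899 for *Arc*, -0.29 to 0.30 for *Atf3*, -0.0496 to 0.0704 for *Btg2*, -0.0809 to 0.0143 for *Dnm3os*, -0.17 to 0.24 for *Fosb*, -0.19 to 0.17 for *Fosl1*, -0.0686 to 0.13 for *Gadd45g*, -0.30 to 0.28 for *Gm17024*, -0.0835 to 0.10 for *Hes1*, -0.23 to 0.10 for *Mir22hg*, -0.0683 to 0.12 for *Nr4a1*, -0.0532 to 0.23 for *Phlda1*, -0.0886 to 0.10 for *Ptgs2*, -0.0611 to 0.12 for *Sgk1*, and -0.12 to 0.0693 for *Zfp36*. The ∆CT basal libraries held 26 to 43 *Fos* counts each, and the part of depth in its call was not tested.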
